A study of Mus musculus with 8 samples.

Results

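The heat shock proteins and cytosolic chaperonins examined here are 35 genes, found by symbol among the 41457 genes that were counted in every sample, and all 35 had enough reads to be tested. They encode 7 cytosolic proteins of the Hsp70 and Hsp110 families, 5 J-domain co-chaperones, the 2 cytosolic Hsp90 proteins with 3 of their co-chaperones, 2 small heat shock proteins with Bag3, 5 chaperones of mitochondria or the endoplasmic reticulum, 2 heat shock transcription factors and the 8 subunits of the cytosolic chaperonin. RNA came from keratinocytes (KCs), the epithelial cells of the epidermis, which were prepared from the tails of adult wildtype mice, C57BL/6 by the labels and C57BL/6J in the study's text, and kept in serum-free, low-calcium medium. Cells of 4 samples were cultured for 1 week and those of 4 samples for 3 weeks, all untreated. Nothing else is labelled as different between the groups, cells were split when nearly confluent, and the labels give no age beyond adult. The study describes the cultures as independent batches of KCs, the same at both times, and the labels do not name the animals behind a sample. P-values therefore measure the spread between such batches within each time, since the main test did not pair samples across the times.

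Hsp70 proteins bind short hydrophobic stretches of unfolded proteins. J-domain proteins deliver the client and start ATP hydrolysis, and nucleotide exchange factors such as Hsp110 and Bag proteins release it. Hsp90 acts later, on nearly folded clients such as kinases and steroid receptors, small heat shock proteins hold unfolded proteins without ATP, and the ring-shaped chaperonin encloses actin and tubulin while they fold. Hsf1 drives many of these genes under stress through heat shock elements, inverted repeats of the unit GAA in promoters. In the epidermis the small heat shock protein Hspb1 is known to be abundant.

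Exon reads numbered between 13896807 and 20026084 per sample at 1 week and between 14096649 and 18127283 at 3 weeks, and the members drew between 150 reads (Hspa1a) and 79033 reads (Hspb1) in a sample. Levels are given as RPKM, read counts scaled to the exon length of each gene and to sequencing depth, which may be compared between genes. Changes are log2 fold changes of exon reads, 3 weeks over 1 week, from edgeR's quasi-likelihood test after TMM scaling, with Benjamini-Hochberg adjusted p-values over 12590 genes and a threshold of 0.05. RPKM values carry no TMM scaling. The median log2 fold change over all tested genes was 0.028 after TMM scaling but -0.16 on the log2(RPKM + 0.1) scale and -0.10 on the log2(RPKM + 1) scale, so that a fall looks larger in RPKM. Of the called genes, 48.0% were higher at 3 weeks after TMM scaling, against 29.9% and 28.7% with limma on the same RPKM scales. One sample, 3 weeks replicate 3, stood apart from the rest. Its RPKM values summed to 477197 over all genes, against 330529 to 370490 in the other 7 samples, and its TMM factor was 0.853 against 0.965 to 1.07 in the others. A second sample, 3 weeks replicate 4, held by far the most Hspa1a and Hspa1b RNA. Results that rest on either sample are given with and without it.

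Between 1 and 3 weeks, 6 of the 35 genes rose (Hspa2, Dnajb4, Dnajb6, Hspb1, Hspb8 and Hspa13) and 7 fell (Hspa14, Fkbp4, Hspa9, Hspd1, Trap1, Cct4 and Cct6a). These 13 genes are 37.1% of the members, and 32.8% of all tested genes were called, so the share was near that of the background. For rises the shares were 17.1% of the members and 15.7% of all genes, and for falls 7 of 35 and 17.0%. In RPKM every sample at 3 weeks was above every sample at 1 week in 5 members (14.3%, against 10.8% of all tested genes), and below in 14 (40.0%, against 26.2%). After TMM scaling these counts were closer together, with 7 members above (against 16.4% of all tested genes) and 9 below (25.7%, against 18.5%). At least 2-fold changes passed the test in 3 members (Hspa2, Dnajb4 and Fkbp4), or 8.57%, against 15.4% of all genes. The median log2 fold change of the members was -0.023. Of the rises, 2 were among the 5 J-domain proteins and 2 among the 3 small heat shock proteins and Bag3, and of the falls, 3 were mitochondrial chaperones and 2 were among the 8 chaperonin subunits, while a difference between roles was not tested. Each table also carries a number, read here as that of the KC preparation. Numbers 46, 49 and 90 occur at both times, whereas the remaining sample of each time has a number of its own. The study calls the batches the same at both times, which the numbers do not show for these remaining samples. Log2 ratios within a preparation are given on the TMM scale. Within these 3 preparations all 13 called genes moved in the called direction each time, as did 99.2% of the 4127 called genes. With the 3 preparations as a block 3 members rose and 9 fell. Leaving out 1 week replicate 4 left 3 rises, and leaving out 3 weeks replicate 3 gave 12 falls. Called in each of the 19 alternative analyses were 8 members, the rises of Hspa2, Dnajb4 and Dnajb6 and the falls of Hspa14, Fkbp4, Hspa9, Hspd1 and Trap1. That is 22.9% of the members, against 14.3% of all tested genes.

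**Figure D1:**
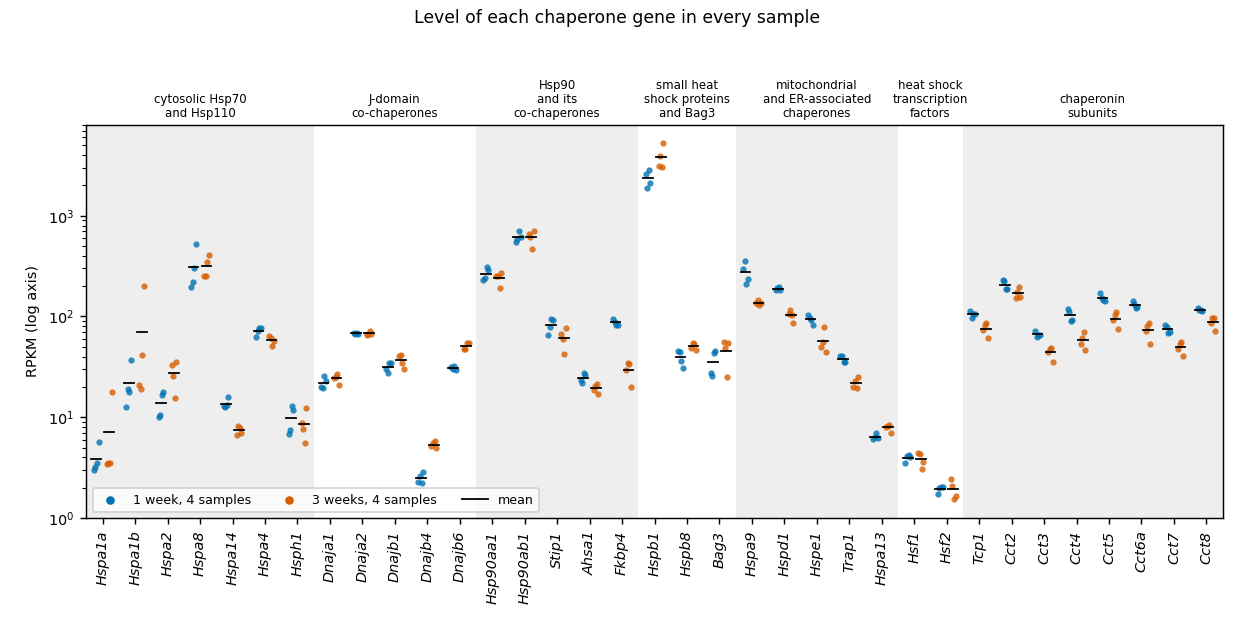
RPKM of the 35 genes on a log axis, with 1 point per sample (blue, 1 week, n = 4; orange, 3 weeks, n = 4), a black line at each group mean and the genes grouped by role. Hspb1, between 1903 and 5218 RPKM, lies far above all other members, and Hsf2, between 1.53 and 2.45 RPKM, is the lowest by group mean.

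**Figure D2:**
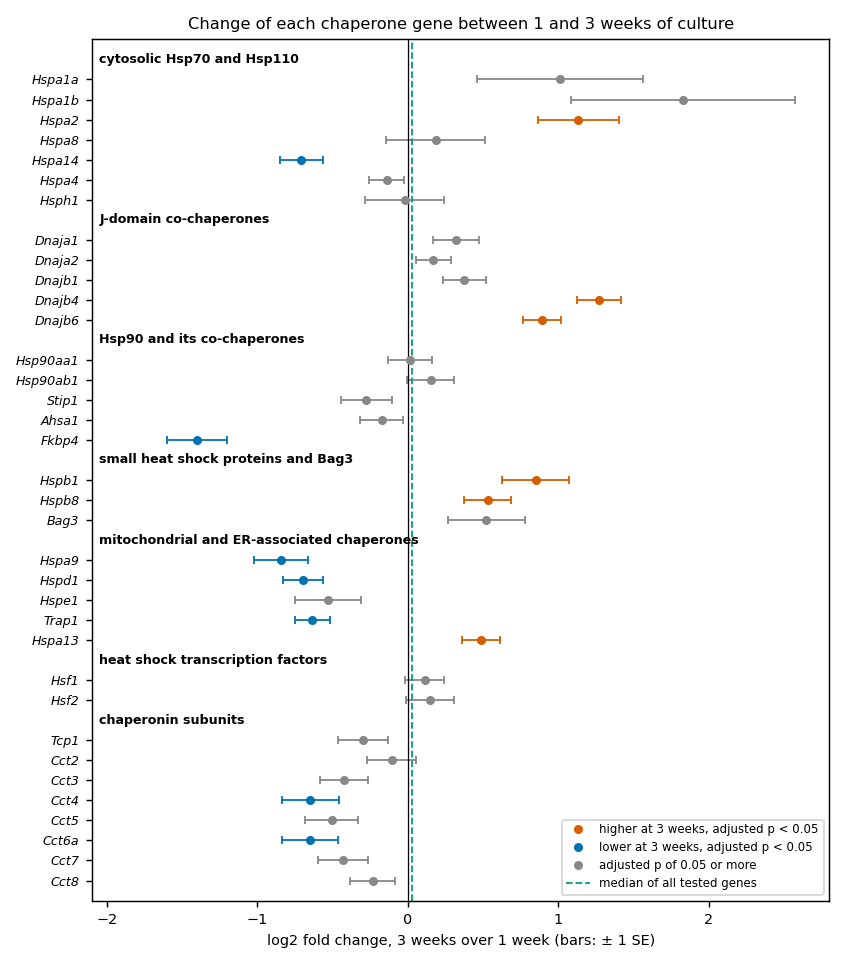
Log2 fold change of each gene, 3 weeks over 1 week, from edgeR with bars of 1 SE (n = 4 and 4), coloured by call, with a dashed line at the median of all tested genes, 0.028. All 8 chaperonin subunits lie left of zero while the calls among J-domain proteins and small heat shock proteins lie right of it.

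Among the Hsp70 proteins, Hspa8 was the most abundant. It encodes Hsc70, the form that cells make without stress, and it stood at 198, 219.9, 306 and 523 RPKM in 1 week replicates 1 to 4 and at 253, 253, 345 and 408 RPKM in 3 weeks replicates 1 to 4. The groups overlapped widely, and the log2 fold change was 0.18 ± 0.33 (SE, adjusted p = 0.705, edgeR). Unique reads, those with 1 best place in the genome, made up 14.1% of its total. Of the summed RPKM of Hspa8, Hspa2, Hspa1a and Hspa1b, Hspa8 made up 87.0% to 89.6% at 1 week and 61.9% to 85.1% at 3 weeks.

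Hspa2 (chr12:76404176-76406938, plus strand, GRCm38), an Hsp70 best known from male germ cells, was the only rise among the 7 cytosolic Hsp70 and Hsp110 genes. Its RPKM values were 10.01, 10.6, 16.8 and 17.8 at 1 week, as against 33.0, 25.5, 15.4 and 35.5 at 3 weeks. The low value at 3 weeks belonged to replicate 3 and lay within the range of 1 week, whereas after TMM scaling the groups did not overlap. Its log2 fold change was 1.13 ± 0.27 (SE, adjusted p = 0.0120, edgeR), a 2.19-fold difference. In preparations 46, 49 and 90 the log2 ratio was 1.82, 0.74 and 1.09.

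Hspa14 (chr2:3488850-3512814, minus strand), an Hsp70-like protein that works with a J-domain protein at the ribosome, fell in turn. It measured 12.9, 12.5, 13.3 and 15.7 RPKM at 1 week and 6.61, 8.16, 7.86 and 7.03 RPKM at 3 weeks. No sample at 3 weeks reached the lowest at 1 week, and the log2 fold change was -0.71 ± 0.14 (SE, adjusted p = 0.00554, edgeR). A further annotated gene, Gm45902, shares 321 bases of its exons on the same strand. Hspa4 and Hsph1, exchange factors of the Hsp110 family, had log2 fold changes of -0.14 ± 0.12 and -0.023 ± 0.26 (SE, adjusted p = 0.376 and 0.957, edgeR). Hspa4 ranged from 50.8 to 77.2 RPKM over all samples and Hsph1 from 5.55 to 12.9 RPKM, with overlapping groups.

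Hspa1a (chr17:34969190-34972156, minus strand) and Hspa1b (chr17:34956436-34959238, minus strand) encode the stress-inducible Hsp70 and are near-identical neighbours. Their coding sequences of 1923 and 1926 bases differed at 8 bases besides a gap of 3 bases, an identity of 99.6%. The 150 bases before each start site, read from RefSeq promoter sequences on GRCm38.p6 at chr17:34972157-34972306 and chr17:34959239-34959388, were the same but for 1 base, and are shown since the regulation of the pair by stress is known to run through this region. Capitals mark an inverted pair of GAA units, a heat shock element of 2 units, whose first base is at position -104 from the start in both genes (the base before the start is -1). Only exact units were searched for, so a longer element that includes an imperfect unit would not be marked.
Hspa1a: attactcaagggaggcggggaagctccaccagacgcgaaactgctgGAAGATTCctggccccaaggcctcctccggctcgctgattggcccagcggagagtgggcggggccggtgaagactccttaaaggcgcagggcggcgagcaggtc
Hspa1b: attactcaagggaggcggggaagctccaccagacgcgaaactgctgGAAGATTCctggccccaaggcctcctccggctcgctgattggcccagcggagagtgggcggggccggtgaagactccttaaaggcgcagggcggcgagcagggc

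Reads of the pair are hard to assign. Of the exon reads of Hspa1a 12.3% were unique, and of those of Hspa1b 31.9%, so the split between the genes is uncertain. Hspa1b stood at 12.8, 19.0, 17.9 and 37.2 RPKM at 1 week and at 20.7, 19.1, 41.6 and 199 RPKM at 3 weeks. Hspa1a, at lower levels, showed 3.01, 3.21, 3.52 and 5.69 RPKM at 1 week and 3.44, 3.53, 3.51 and 17.9 RPKM at 3 weeks. In both genes 3 weeks replicate 4 was far above all other samples, and replicate 4 was also the highest of the 1 week samples, with the same preparation number, 90. Unique reads also put 3 weeks replicate 4 first. Hspa1b had 2629 unique reads in 3 weeks replicate 4 and between 211 and 657 in the other 7 samples. For Hspa1a these numbers were 90 and between 17 and 30. Neither gene passed the test, with a log2 fold change of 1.83 ± 0.74 for Hspa1b and 1.01 ± 0.55 for Hspa1a (SE, adjusted p = 0.0900 and 0.193, edgeR). Without 3 weeks replicate 4 the values were 0.54 and 0.044, and without 3 weeks replicates 3 and 4 they were 0.0017 and -0.021. Within preparations 46, 49 and 90 the log2 ratio of Hspa1b was 0.79, 0.22 and 2.51. The pair made up 6.23% to 8.77% of the RPKM of the 4 Hsp70 genes at 1 week, and 7.51%, 7.78%, 11.1% and, in replicate 4, 32.8% at 3 weeks.

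**Figure D3:**
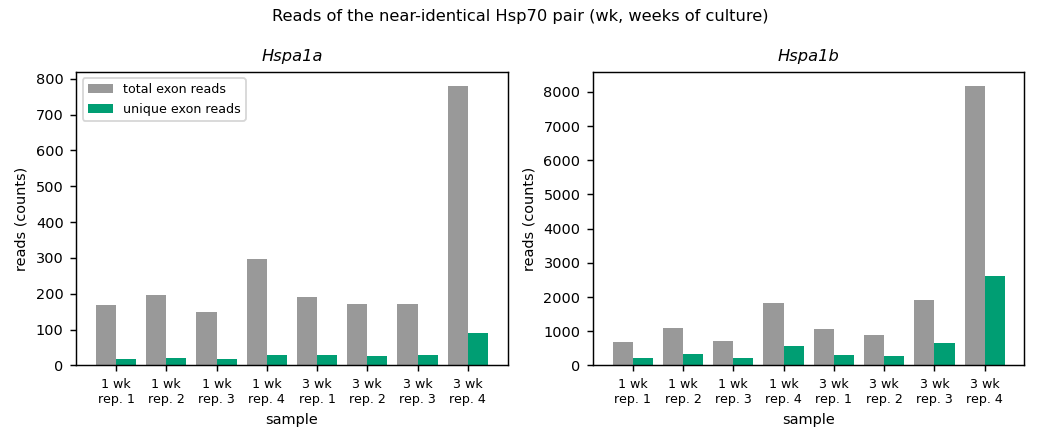
Total exon reads (grey) and unique exon reads (green) of Hspa1a and Hspa1b in each of the 8 samples, as counts on axes that start at 0 and differ between the panels. In 3 weeks replicate 4 Hspa1b had 8175 total and 2629 unique reads, and Hspa1a 780 and 90.

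The J-domain co-chaperones all had positive log2 fold changes, and 2 of the 5 rose. Of all 12590 tested genes 6518 had a positive log2 fold change, and 15.7% rose. Dnajb4 (chr3:152178511-152210302, minus strand), a partner of Hsp70 of the Hsp40 type, had the largest rise of any member that passed the test. It measured 2.29, 2.59, 2.24 and 2.88 RPKM at 1 week and 5.12, 5.52, 5.81 and 4.96 RPKM at 3 weeks, without overlap. The log2 fold change was 1.27 ± 0.15 (SE, adjusted p = 0.000501, edgeR), or 2.41-fold, and the log2 ratio within preparations 46, 49 and 90 was 1.26, 1.43 and 0.88. RefSeq lists 2 start sites for it, and the promoter of the first held no match to a heat shock element. The 150 bases before the second (chr3:152193846-152193995, minus strand, GRCm38.p6) are shown as the promoter of the largest rise, with a heat shock element of 2 units in capitals that begins at position -14.
Dnajb4: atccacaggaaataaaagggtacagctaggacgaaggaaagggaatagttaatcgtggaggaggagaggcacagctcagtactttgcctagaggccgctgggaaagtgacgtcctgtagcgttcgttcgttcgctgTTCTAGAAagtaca

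Dnajb6 (chr5:29735688-29818134, plus strand), a J-domain protein known to keep aggregation-prone proteins soluble, rose as evenly. Its RPKM values were 31.5, 30.4, 31.9 and 29.2 at 1 week, as against 47.5, 47.3, 54.1 and 54.0 at 3 weeks. Every sample at 3 weeks lay above every sample at 1 week, and the log2 fold change was 0.89 ± 0.12 (SE, adjusted p = 0.00108, edgeR). Of its reads 56.2% were unique, and Gm5129 on the opposite strand shares 249 bases with it. With unique reads alone it was called as well.

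Dnaja2, a constitutive partner of Hsc70, was in RPKM the least variable member in both groups relative to its mean. Its mean RPKM was 67.9 ± 0.953 at 1 week and 67.9 ± 2.75 at 3 weeks (SD, n = 4 each). This ranking did not hold after TMM scaling. On that scale Dnaja2 lay between 191 and 205 CPM (reads scaled to library size) at 1 week. At 3 weeks it lay between 208 and 259 CPM, above 1 week without overlap, with 3 weeks replicate 3 the highest. Dnajb1, the stress-inducible Hsp40, stood at 30.3, 27.6, 34.4 and 34.3 RPKM at 1 week and 40.4, 41.2, 34.8 and 30.1 RPKM at 3 weeks. The lowest value at 3 weeks was that of replicate 4, in which Hspa1b was highest. Dnajb1 had a log2 fold change of 0.37 ± 0.14 and Dnaja1, a second constitutive partner, of 0.32 ± 0.15 (SE, adjusted p = 0.0710 and 0.138, edgeR). Without 3 weeks replicate 4 both were called, at 0.48 and 0.41 (adjusted p = 0.0115 and 0.0447, edgeR). Dnaja1 had 35.04% unique reads and overlaps Smu1 on the opposite strand. Dnaja2 gave 0.17 ± 0.11 (SE, adjusted p = 0.291, edgeR).

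Of the Hsp90 machinery, Hsp90 itself stayed within the spread between samples, while 1 co-chaperone fell steeply. Hsp90ab1, the constitutive cytosolic Hsp90, lay between 545 and 700.5 RPKM at 1 week and between 466 and 712 RPKM at 3 weeks. Hsp90aa1, the inducible form, lay between 233 and 308 RPKM and between 192 and 268 RPKM. In both genes 3 weeks replicate 3 was the lowest sample in RPKM. After TMM scaling the lowest was 1 week replicate 1 for Hsp90ab1 and 1 week replicate 2 for Hsp90aa1. The log2 fold changes of Hsp90ab1 and Hsp90aa1 were 0.15 ± 0.15 and 0.010 ± 0.15 (SE, adjusted p = 0.493 and 0.966, edgeR). Per kilobase, Hsp90ab1 exceeded Hsp90aa1 by a ratio of 2.15 to 2.47 at 1 week and of 2.42 to 2.66 at 3 weeks. Only 26.5% of the reads of Hsp90aa1 were unique, against 97.5% for Hsp90ab1.

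Fkbp4 (chr6:128429735-128438677, minus strand) encodes FKBP52, an immunophilin that binds Hsp90 in steroid receptor complexes, and it had the largest fall of all members. Its RPKM values were 95.4, 88.7, 82.5 and 82.3 at 1 week, as against 29.3, 34.4, 33.4 and 19.97 at 3 weeks. The groups were far apart and 3 weeks replicate 4 was the lowest. The log2 fold change was -1.40 ± 0.20 (SE, adjusted p = 0.00111, edgeR), so that the level was 2.64-fold higher at 1 week. The log2 ratio within preparations 46, 49 and 90 was -1.61, -1.13 and -1.95. Its reads were unique to 100% after rounding. As the promoter of the largest fall, the 79 bases of chr6:128438678-128438756 (minus strand, GRCm38.p6), which end at position -22 from the RefSeq start and lie in no annotated exon, are shown, and they hold no inverted pair of GAA units, although a match lies further upstream at position -151, in an exon of Gm10069.
Fkbp4: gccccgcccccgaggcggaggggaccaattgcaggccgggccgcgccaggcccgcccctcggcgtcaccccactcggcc

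Stip1, the adaptor that joins Hsp70 to Hsp90, stood at 65.5, 78.6, 95.4 and 92.2 RPKM at 1 week and 67.7, 59.8, 42.8 and 76.2 RPKM at 3 weeks, with overlap. Ahsa1, an activator of the Hsp90 ATPase, had means of 24.6 ± 2.59 and 19.4 ± 1.97 RPKM (SD, n = 4 each). All 4 values of Ahsa1 at 3 weeks were below the lowest at 1 week in RPKM, but not after TMM scaling. The log2 fold changes were -0.28 ± 0.17 for Stip1 and -0.17 ± 0.14 for Ahsa1 (SE, adjusted p = 0.243 and 0.388, edgeR).

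Hspb1 (chr5:135887919-135889563, plus strand), the small heat shock protein Hsp25, was by level the dominant chaperone gene of these cells. It measured 2579, 1903, 2860.3 and 2116 RPKM at 1 week and 3096, 3935, 3058 and 5218 RPKM at 3 weeks. All samples at 3 weeks were above all at 1 week. Hspb1 ranked between 12 and 16 among all genes by RPKM at 1 week and between 7 and 20 at 3 weeks. It made up 36.8% to 46.1% of the summed RPKM of the members at 1 week and 53.8% to 63.9% at 3 weeks. The log2 fold change was 0.85 ± 0.22 (SE, adjusted p = 0.0173, edgeR), and the log2 ratio within preparations 46, 49 and 90 was 0.36, 0.59 and 1.40. Without 1 week replicate 2 or 1 week replicate 4 the call was lost, at log2 fold changes of 0.75 and 0.79 (adjusted p = 0.0544 and 0.0565, edgeR), and with the 3 preparations as a block it was lost at 0.75 (adjusted p = 0.105, edgeR). The call was also lost with the replicate block, and held in 15 of the 19 alternatives. Hspb1 is a short gene by exon length, 1031 bases. Of its reads 49.4% were unique.

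Hspb8 (chr5:116408491-116422864, minus strand) and Bag3 encode partners that pass damaged proteins to autophagy. Hspb8 stood at 45.3, 44.6, 36.5 and 30.8 RPKM at 1 week and at 48.9, 54.0, 52.9 and 46.0 RPKM at 3 weeks, close together but without overlap. It rose with a log2 fold change of 0.53 ± 0.16 (SE, adjusted p = 0.0309, edgeR). This call was among the weakest: it was lost in 12 of the 19 alternatives, among them the omission of 1 week replicate 3 or 4 or of 3 weeks replicate 1, 2 or 3, where the log2 fold change ranged from 0.43 to 0.56. Bag3 showed 27.7, 25.4, 43.0 and 45.0 RPKM at 1 week and 55.5, 48.4, 25.3 and 54.2 RPKM at 3 weeks. The low value was that of 3 weeks replicate 3. Its log2 fold change of 0.52 ± 0.26 did not pass the test (SE, adjusted p = 0.152, edgeR), and without 3 weeks replicate 3 it was 0.67 (adjusted p = 0.0447, edgeR).

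Of the 4 mitochondrial chaperones, 3 fell at 3 weeks (Hspa9, Hspd1 and Trap1), where 17.0% of all tested genes fell. In RPKM all 4, Hspe1 included, lay below 1 week without overlap, as did 26.2% of all tested genes, and after TMM scaling 3 did, against 18.5%, as Hspe1 then overlapped. Hspa9, mortalin, is the Hsp70 that pulls proteins into the mitochondrial matrix. It lies on chromosome 18 (chr18:34937423-34954351, minus strand). Its RPKM values were 296, 359.6, 211 and 235 at 1 week, as against 138, 145, 130.3 and 135 at 3 weeks. The 1 week samples were spread widely and the 3 weeks samples hardly at all, with an SD of 66.6 and 6.11 RPKM. The log2 fold change was -0.84 ± 0.18 (SE, adjusted p = 0.00727, edgeR).

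Hspd1 and Hspe1 encode Hsp60 and its lid Hsp10, which form the chaperonin of the mitochondrial matrix, and are arranged head to head on chromosome 1. Hspd1 (chr1:55077835-55088243, minus strand) fell from 183, 189.8, 196 and 183 RPKM at 1 week to 106, 116, 104 and 86.6 RPKM at 3 weeks, a log2 fold change of -0.70 ± 0.13 (SE, adjusted p = 0.00433, edgeR). Hspe1 (chr1:55088132-55091307, plus strand) stood at 103, 97.1, 91.8 and 82.7 RPKM at 1 week and at 49.4, 56.0, 78.6 and 44.2 RPKM at 3 weeks. The highest of these at 3 weeks was replicate 3. For Hspe1 the log2 fold change was -0.53 ± 0.22 and did not pass the test (SE, adjusted p = 0.0929, edgeR), whereas without 3 weeks replicate 3 it was -0.82 (adjusted p = 0.00259, edgeR). The exons of the pair overlap by 112 bases on opposite strands, and 48.2% of the reads of Hspe1 were unique. Both genes were lower in 3 of 3 preparations, with a log2 ratio of -0.69, -0.63 and -0.99 for Hspd1 and of -0.97, -0.58 and -0.81 for Hspe1 in preparations 46, 49 and 90. The ratio of Hspd1 to Hspe1 in RPKM was 1.77 to 2.21 at 1 week and 1.32 to 2.15 at 3 weeks.

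Trap1 (chr16:4039971-4077827, minus strand), the mitochondrial Hsp90, measured 40.4, 40.6, 35.2 and 35.3 RPKM at 1 week and 20.02, 23.1, 19.5 and 24.8 RPKM at 3 weeks. It fell with a log2 fold change of -0.64 ± 0.11 (SE, adjusted p = 0.00341, edgeR). Hspa13 (chr16:75745431-75767104, minus strand), an Hsp70-like protein bound to microsomes, went the other way. Its RPKM values were 6.03, 6.29, 6.91 and 6.20 at 1 week, as against 7.97, 8.27, 8.35 and 7.02 at 3 weeks, without overlap. The log2 fold change was 0.48 ± 0.13 (SE, adjusted p = 0.0174, edgeR). The call of Hspa13 was lost without 1 week replicate 2 or 4, where the adjusted p was 0.0501 and 0.0526 (edgeR) and the log2 fold change 0.47 both times, and with the 3 preparations as a block, at 0.36 (adjusted p = 0.143, edgeR). It was also lost without a filter, with limma on log2(RPKM + 0.1) and with the replicate block, and held in 13 of the 19 alternatives.

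Hsf1 and Hsf2, the transcription factors, were low and did not pass the test. Hsf1 stood at 3.49, 4.10, 4.24 and 4.03 RPKM at 1 week and at 4.38, 4.29, 3.08 and 3.58 RPKM at 3 weeks. Hsf2 stood at 1.73, 1.96, 2.03 and 2.02 RPKM and at 2.45, 2.05, 1.53 and 1.64 RPKM. In both genes 3 weeks replicates 1 and 2 were the highest of all samples, in RPKM and after TMM scaling. In RPKM 3 weeks replicate 3 was the lowest of all. After TMM scaling the lowest was 1 week replicate 1 for Hsf1 and 3 weeks replicate 4 for Hsf2. The log2 fold changes of Hsf1 and Hsf2 were 0.11 ± 0.13 and 0.15 ± 0.16 (SE, adjusted p = 0.553 and 0.507, edgeR), and both turned slightly negative on the RPKM scales.

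**Figure D4:**
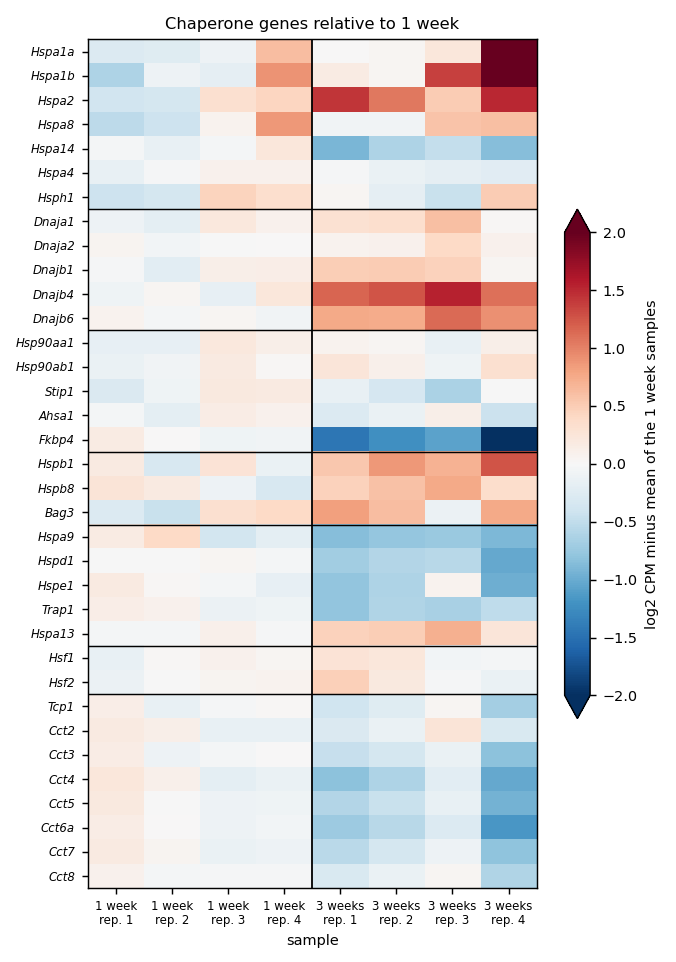
Log2 CPM (reads scaled to library size) after TMM scaling of the 35 genes in the 8 samples, each minus the mean of the 4 samples of 1 week, on a colour scale that ends at ±2 and with lines between the roles in the order of the text. The mitochondrial genes and the chaperonin subunits are blue in most samples of 3 weeks, with 3 weeks replicate 3 the palest among the subunits, while Hspa1a and Hspa1b are dark red in 3 weeks replicate 4.

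The 8 subunits of the cytosolic chaperonin, called TRiC or CCT, had negative log2 fold changes throughout. Of these, 2 fell, Cct4 and Cct6a, where 17.0% of all tested genes fell. Each chaperonin ring holds 1 copy of every subunit. Cct4 (chr11:22990519-23003780, plus strand) stood at 117, 111, 89.8 and 92.8 RPKM at 1 week and at 53.0, 61.4, 70.7 and 47.0 RPKM at 3 weeks, a log2 fold change of -0.65 ± 0.19 (SE, adjusted p = 0.0293, edgeR). Cct6a (chr5:129786998-129846371, plus strand) stood at 141, 133, 122 and 124 RPKM and at 71.4, 81.2, 85.9 and 53.7 RPKM, with a log2 fold change of -0.65 ± 0.19 (SE, adjusted p = 0.0254, edgeR). It shares 452 bases of exon with Psph on the opposite strand. At 3 weeks the highest sample was replicate 3 and the lowest replicate 4 in both genes.

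The other 6 subunits did not pass the test, with log2 fold changes between -0.51 for Cct5 and -0.11 for Cct2. Cct5 came closest: it measured 172, 154, 144 and 142 RPKM at 1 week and 93.2, 104, 111 and 74.3 RPKM at 3 weeks, and its log2 fold change was -0.51 ± 0.17 (SE, adjusted p = 0.0521, edgeR). For Cct7, Cct3, Tcp1 and Cct8 the log2 fold changes were -0.43, -0.42, -0.30 and -0.24 (adjusted p = 0.0771, 0.0673, 0.195 and 0.258, edgeR). Cct2 alone overlapped in RPKM, with 228, 227, 189 and 186 at 1 week and 154, 173, 198 and 156 at 3 weeks (adjusted p = 0.647, edgeR). In the other 7 subunits every RPKM value at 3 weeks was below every value at 1 week, which held for 26.2% of all tested genes and for 14 of the 35 members. After TMM scaling this held for 4 subunits, Cct3, Cct4, Cct5 and Cct6a, and for 18.5% of all tested genes. Negative log2 fold changes were found for 48.2% of all tested genes.

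Summed over the 8 subunits, RPKM ranged from 899 to 1046 at 1 week and from 539 to 753 at 3 weeks, with replicate 4 the lowest and replicate 3 the highest at 3 weeks. The number of subunits called lower hung on single samples and on the scaling. It was 6 without 3 weeks replicate 3, 1 without 1 week replicate 1 or 4, and 0 without 1 week replicate 2, 3 weeks replicate 1 or 3 weeks replicate 2. DESeq2 and unique reads each called 5 and limma on either RPKM scale 7. The median log2 fold change of the subunits was -0.43, or -0.46 relative to all tested genes, and relative to all genes it was -0.45 and -0.50 on the RPKM scales. Without 3 weeks replicate 4 it was -0.32 and without 3 weeks replicate 3 it was -0.56 relative to all genes. All 8 subunits stayed negative in each of the 19 alternatives. In preparations 46, 49 and 90 the log2 ratio was negative 3 times for each subunit but Cct2, which gave -0.47, 0.0087 and -0.16.

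The order of the subunits by level hardly changed between the times. Cct2 was the highest and Cct3 the lowest in each of the 8 samples, with a ratio of 2.82 to 3.61 at 1 week and of 3.49 to 4.46 at 3 weeks. By group mean at 1 week the order was Cct2, Cct5, Cct6a, Cct8, Tcp1, Cct4, Cct7 and Cct3. Between Tcp1 with 105 ± 6.62 RPKM and Cct4 with 103 ± 13.6 RPKM (SD, n = 4 each) the difference was within the spread between samples. These levels depend on the exon length used, which was 6370 bases for Cct3 and 6778 for Cct7, the lowest 2, and 2557 for Cct2. At 3 weeks Cct8 and Tcp1 stood above Cct6a.

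**Figure D5:**
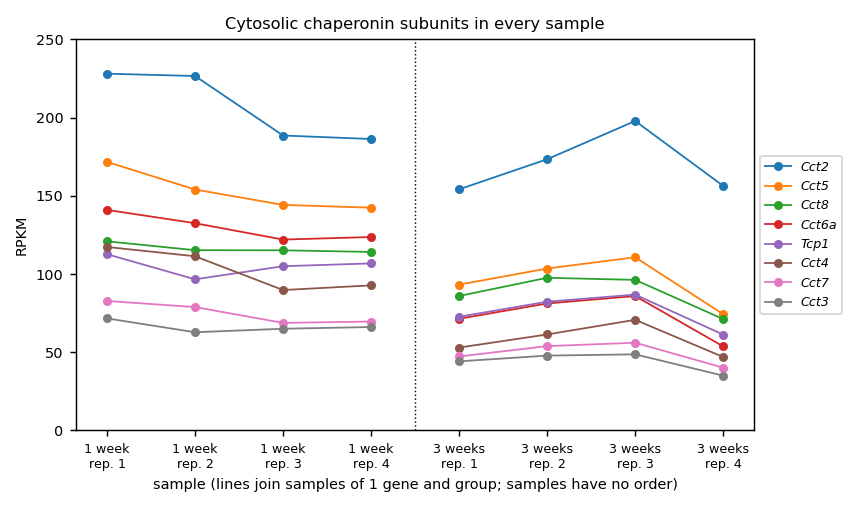
RPKM of the 8 chaperonin subunits in each sample, on an axis from 0, with lines that join the samples of a gene within 1 time and a dotted line between the times. Cct2 lies above the other subunits in all 8 samples, and all subunits except Cct2 are lower in RPKM in every sample at 3 weeks than in any sample at 1 week, which after TMM scaling holds for 4 of them.

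The promoters of the members were searched for heat shock elements, since inverted GAA units are the sites through which Hsf1 is known to act. RefSeq promoter sequences, from 250 bases before to 50 bases after the start, matched 28 of the 35 genes and leave out Hspa8, Hsp90aa1, Hsp90ab1, Hspa9, Hspa13, Hsf1 and Cct4. An element of 3 units (GAANNTTCNNGAA, or TTCNNGAANNTTC on the other strand) was present in 4 of the 28 members, Hspd1, Hspe1, Dnajb6 and Hsph1, and in 0.663% of the 26994 genes with a promoter sequence (0.603% of all 32817 promoters). Hspd1 and Hspe1 share theirs, as it lies between the Hspe1 start and 1 of the Hspd1 starts, so these are 3 separate sites. The elements themselves are shown in capitals, each read on the strand of its gene. That of Hspe1 (chr1:55088059-55088076) begins at position -89 from the Hspe1 start, consists of 2 overlapping matches and lies in an annotated exon of Hspd1. That of Dnajb6 (chr5:29735852-29735864) begins at position -46 from the first of 2 starts in an exon that Gm5129 overlaps, and that of Hsph1 (chr5:149636288-149636300) lies after both starts.
Hspe1: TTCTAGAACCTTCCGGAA
Hspd1: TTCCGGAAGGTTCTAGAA
Dnajb6: GAATCTTCCGGAA
Hsph1: TTCTGGAAAGTTC

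Of the genes with 3 units, Dnajb6 rose, Hspd1 fell, and Hspe1 and Hsph1 did not pass the test. The shorter element of 2 units (GAANNTTC or TTCNNGAA), which is part of the longer one, was present in 15 of the 28 members and in 17.0% of all genes with a promoter sequence (15.1% of all promoters). Those 15 genes included 4 of the 5 called rises with a promoter sequence (Dnajb4, Dnajb6, Hspb1 and Hspb8) and 3 of the 5 called falls with one (Fkbp4, Hspd1 and Cct6a). The matches of Hspb8 and Cct6a begin after the start, at positions 3 and 25, in exons of these genes. Only exact letters were matched, so elements with an imperfect unit were not counted at their full length. A match is a string of letters and does not show that a factor binds there.

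Genes of the same pathway outside the 35 were read from 10 lists. The background for the counts in each list is that 15.7% of all tested genes rose and 17.0% fell. Of 6 tested further heat shock protein genes 2 fell. These were Hspb2, a small heat shock protein of muscle, from 5.88 ± 2.27 to 2.26 ± 0.349 RPKM (SD, n = 4 each, log2 fold change -1.21, adjusted p = 0.0202, edgeR), and Cct6b, a chaperonin subunit known from testis, from 4.62 ± 0.582 to 2.48 ± 0.602 RPKM (log2 fold change -0.72, adjusted p = 0.0456, edgeR). Of the Hspb2 reads 47.7% were unique. Of 22 other co-chaperones of Hsp70 and Hsp90, 7 fell and 15 did not pass the test. The largest falls were those of Ppid, the immunophilin cyclophilin 40, at -1.20, and of Aarsd1 at -2.03 (adjusted p = 0.00170 and 0.00257, edgeR), and only 3.79% of the reads of Aarsd1 were unique. Ppid is, like Fkbp4, an immunophilin that docks on Hsp90, and it went from 15.6 ± 1.14 to 5.99 ± 1.20 RPKM (SD, n = 4 each). Ptges3, the Hsp90 co-chaperone p23, Ppp5c, Bag5, Hspbp1 and Ttc4 were the other falls.

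Of 18 further J-domain proteins 6 rose and 4 fell. Among the rises without overlap in RPKM, Dnajb5 and Dnajc18 had the largest log2 fold changes, 0.80 and 0.67 (adjusted p = 0.0112 and 0.00730, edgeR). Dnajc16, whose groups overlapped in RPKM, rose at 0.72 (adjusted p = 0.0373, edgeR). Dnajc9, a histone co-chaperone, and Dnajc21, a ribosome assembly factor, fell most, at -1.19 and -0.88 (adjusted p = 0.00681 and 0.00344, edgeR). Of 9 subunits of prefoldin and cofactors of the chaperonin edgeR called 0, DESeq2 1, and limma on either RPKM scale 0, and 1 gene had an unadjusted p under 0.05. Among 13 actins and tubulins, the clients of the chaperonin, 3 fell. Tuba1b, a main alpha tubulin, went from 856 ± 169 to 329 ± 96.6 RPKM (SD, n = 4 each, log2 fold change -1.20, adjusted p = 0.0103, edgeR), with 10.6% unique reads, and Tubb3 went from 13.5 ± 8.21 to 2.17 ± 1.46 RPKM (log2 fold change -2.44, adjusted p = 0.0378, edgeR), with 9.90% unique reads. Tubg1 also fell.

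In the mitochondrion, 4 of 13 other quality control genes fell and 1 rose. Lonp1, the matrix protease, fell from 32.8 ± 9.88 to 12.1 ± 1.32 RPKM and Dnaja3, the J-domain partner of Hspa9, from 17.5 ± 3.56 to 9.82 ± 0.706 RPKM (SD, n = 4 each, log2 fold changes -1.27 and -0.67, adjusted p = 0.00173 and 0.0106, edgeR). The nucleotide exchange factors of Hspa9, Grpel1 and Grpel2, had log2 fold changes of 0.11 and 0.17 and did not pass the test. Of 16 chaperones of the endoplasmic reticulum 7 fell and 1 rose. Hspa5, the Hsp70 of that compartment known as BiP, fell from 324 ± 74.6 to 113 ± 19.7 RPKM and Sdf2l1 from 87.5 ± 27.9 to 26.8 ± 1.69 RPKM (SD, n = 4 each, log2 fold changes -1.36 and -1.55, adjusted p = 0.00130 and 0.00153, edgeR). Dnajb9, a J-domain partner of BiP, rose at 0.74 (adjusted p = 0.00654, edgeR). Of 7 tested further genes tied to the heat shock factor response 2 rose, Sqstm1 and Hsbp1. The latter encodes a binding partner of Hsf1, and it went from 49.7 ± 3.73 to 83.7 ± 10.3 RPKM (SD, n = 4 each, log2 fold change 0.93, adjusted p = 0.00203, edgeR).

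Genes of cell proliferation were lower at 3 weeks, and their part in the falls of the members was not tested. All 10 proliferation genes fell, led by the cyclins Ccna2 and Ccnb1 at log2 fold changes of -3.90 and -3.62 (adjusted p = 0.000204 and 0.000232, edgeR). Of 10 immediate early genes, which respond to handling and stress, 2 fell, Atf3 at -1.94 and Ier2 at -0.59 (adjusted p = 0.00289 and 0.0337, edgeR), and their summed RPKM was 553 to 826 at 1 week and 415 to 659.8 at 3 weeks. In the sample with the most Hspa1b, 3 weeks replicate 4, this sum was the highest of its group. This did not hold at 1 week, where replicate 4 also had the most Hspa1b. There the sums were 657, 826, 553 and 577 RPKM in replicates 1 to 4. A link between these genes and Hspa1b was not tested.

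Markers of KCs were abundant in each sample. The 7 marker genes, among them the basal keratins Krt5 and Krt14, summed to 12303 to 14581 RPKM at 1 week and 7240.0 to 8398 RPKM at 3 weeks, and 2 of them, Krt5 and Itga6, fell at log2 fold changes of -1.32 and -0.75 (adjusted p = 0.00103 and 0.0391, edgeR). Fewer cells of a kind and less RNA per cell cannot be told apart in such samples. The 8 fibroblast markers summed to 4.00 to 6.98 RPKM at 1 week and 2.84 to 6.14 at 3 weeks, and Pdgfrb fell (log2 fold change -1.74, adjusted p = 0.0102, edgeR). The 7 melanocyte markers summed to 3.61 to 21.5 and 1.66 to 6.04 RPKM, and Pmel fell (log2 fold change -2.06, adjusted p = 0.0266, edgeR). For the 7 leukocyte markers the sum was 1.58 to 4.81 and 1.94 to 4.39 RPKM, with Cd207 at 0 in all samples, and for the 4 endothelial markers it was below 1 RPKM in every sample. The 4 markers of smooth muscle and pericytes summed to 1.13 to 3.13 RPKM at 1 week and 11.9 to 31.2 RPKM at 3 weeks, and among them Cnn1 rose from 1.96 ± 0.885 to 18.4 ± 8.94 RPKM (SD, n = 4 each, log2 fold change 3.39, adjusted p = 0.000717, edgeR). Nearly all of that sum was Cnn1, since Des and Rgs5 stayed below 1 RPKM in all samples, with means of 0.132 and 0.0614 RPKM at 1 week and 0.0851 and 0.0402 RPKM at 3 weeks, and the mean of Myh11 was 0.0290 and 0.778 RPKM. The part of these cell types in the changes of the chaperone genes was not tested.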

How the data were processed

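Poly(A) RNA of 8 samples of mouse KCs, 4 per culture time, had been sequenced by the authors, who aligned the trimmed reads to GRCm38 and counted them per gene in the CLC Genomics Workbench 12.0 (build per the labels, program per the methods). The authors deposited, without normalization, counts of total and unique exon reads for 41457 genes, together with RPKM values written with decimal commas, which were read as numbers. The annotation release and the use of strand in counting are not given in the sources used here, so opposite-strand overlaps of exons are named. Besides those given with the genes, Hspa1a shares 564 bases (19.0% of its exon bases) with Gm20481. Tcp1 shares 571 bases (11.4%) with Acat3 and 141 with Mrpl18. Trap1 shares 54 bases with Dnase1, Cct7 214 with Pradc1, Cct8 192 with Usp16 and Dnaja1 249 with Gm6297. Exon reads per sample ranged from 13896807 to 20026084, of which 81.6% to 84.7% were unique.

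Total exon reads were tested without pairing by glmQLFit and glmQLFTest of edgeR 4.0.16 in R 4.3.3, after filterByExpr and TMM scaling. SEs were derived from the F statistics. Alternatives were DESeq2 1.42.0, upper-quartile scaling, no filter, at least 10 reads in every sample, unique reads, limma 3.58.1 on log2(RPKM + 0.1) or log2(RPKM + 1), the replicate or preparation number as a block, and the omission of each sample. The omission of 3 weeks replicates 3 and 4 together and an exon length offset were added after the data were seen. Members and lists were chosen with earlier results of these data known. Named in the text are all 35 members and, from each other list, up to 2 rises and 2 falls with the largest change among called genes without overlap of RPKM; other names were chosen after their values were seen. Promoters are RefSeq sequences of GRCm38.p6, shown for the Hspa1a and Hspa1b pair, the largest rise, the largest fall and members with a heat shock element of 3 units; 7 members matched none. Exon overlaps and coding sequences are from GENCODE M21. Python 3.11.15 and matplotlib 3.10.9 were used.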

Additional observations from a re-analysis of the deposited data

Results flagged for a closer look

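With 4 samples per group, a sample was singled out where its gap to the nearest other sample took a larger part of the range of its group in RPKM than Dixon's critical value at the 95% level allows. Of 70 groups (35 genes at 2 times), 3 held such a sample, and chance gives about 1 in 20. Hspa1a in 3 weeks replicate 4 stood at 17.9 RPKM against 3.44 to 3.53 RPKM in the other samples of its group, a gap of 0.994 of the range. Hspa1b in the same sample stood at 199 RPKM against 19.1 to 41.6 RPKM, a gap of 0.875, and since the reads of this pair are shared the 2 values are not independent. Cct8 in 1 week replicate 1 stood at 121 RPKM against 114 to 115 RPKM, a gap of 0.835, in a group with a small spread. A pair of genes outside the members, chosen after their values were seen, were also highest in 3 weeks replicate 4: Fkbp5, a glucocorticoid-induced Hsp90 co-chaperone, at 22.9 RPKM against 5.43 to 7.90 RPKM in the other 7 samples, and Cryab, a small heat shock protein, at 254 RPKM against 71.8 to 153 RPKM. Other genes of the lists read here were lowest in that sample. Among them were the co-chaperone genes Bag1, at 70.3 RPKM against 87.4 to 109 RPKM, and Chordc1, at 6.36 RPKM against 9.2 to 12.8 RPKM. Serpinh1, from the list tied to the heat shock factor response, stood at 162 RPKM against 179 to 273 RPKM.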

How the results depend on the processing

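Of the 665 member results over the 19 alternatives, 568 kept their direction and their side of the threshold. The 6 rises became 3 with the replicate block and 3 with the preparation block, and 3 to 8 with single samples left out. The 7 falls became 13 and 14 with limma at the pseudocounts 0.1 and 1, 11 without 3 weeks replicates 3 and 4, and 5 to 12 with single samples left out. The members' median log2 fold change moved from -0.023 to -0.18 and -0.16 on the 2 RPKM scales, on which that of all genes also fell below 0. The 2 chaperonin subunits called lower became 5 with DESeq2, 5 with unique reads, 7 and 7 with limma, 0 with the replicate block, 5 without 3 weeks replicates 3 and 4, and 0 to 6 with single samples left out. Replicates 1 and 4 carry the same preparation number at both times, 46 and 90, whereas replicates 2 and 3 do not. Deviations from the group means correlated between -0.23 and 0.25 for samples with the same replicate number. For samples with the same preparation number the range was the same, since replicates 1 and 4 gave both extremes. Correlations of so few pairs cannot decide whether the samples were paired. The replicate block changed the calls of Hspb1, Hspb8, Hspa13, Cct4 and Cct6a and of no other member.

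No called member changed sign. Among members that were not called, signs turned at values near 0. Hspa1a was -0.021 and Hspa8 -0.17 without 3 weeks replicates 3 and 4. Hspa8 was -0.015 and Hsp90aa1 -0.011 with the preparation block. On the scales log2(RPKM + 0.1) and log2(RPKM + 1), Dnaja2 was -0.0015 and -0.0015, Hsp90aa1 -0.15 and -0.15, Hsp90ab1 -0.017 and -0.017, Hsf1 -0.058 and -0.046, and Hsf2 -0.031 and -0.017. Hsp90aa1 was -0.0051 with upper-quartile scaling and -0.049 without a filter. With single samples left out, the log2 fold change ranged from -0.0024 to 0.55 for Hspa8, from -0.23 to 0.13 for Hsph1 and from -0.065 to 0.078 for Hsp90aa1. The cause of these shifts was not tested. Hspa1a had 17 to 90 unique reads per sample.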
